A study of Mus musculus with 12 samples.

Results

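The 10 genes of cardiomyocyte calcium handling Atp2a2, Pln, Ryr2, Casq2, Trdn, Asph, Hrc, Cacna1c, Slc8a1 and Jph2, were described in the left ventricle of mice with and without pressure overload. These members were chosen by symbol, and all 10 were found by NCBI Gene ID among the 18079 genes of the deposited table. RNA sequencing had been done on 12 C57BL/6 mice (male C57BL/6J per the methods of the study), 3 in each of 4 groups, to ask what hispidulin, a plant flavone, does in the overloaded heart. DMSO+Sham mice received the solvent and a sham operation, Hispidulin+Sham mice the drug and a sham operation, DMSO+AB mice the solvent and aortic banding (AB, a constriction of the descending aorta), and Hispidulin+AB mice the drug and AB. Hispidulin was injected intraperitoneally at 20 mg/kg/day from 1 day ahead of surgery, which was done at an age of 8 weeks per the labels, and hearts were taken 4 weeks later. Each mouse gave 1 library. Values are FPKM, read counts scaled by transcript length and library size, so that genes can be compared with each other.

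In each heartbeat the L-type channel lets a little calcium into the cardiomyocyte, this opens the ryanodine receptor of the sarcoplasmic reticulum (SR), and the calcium released from the SR drives contraction. Relaxation follows when the pump SERCA2a, encoded by Atp2a2, returns calcium to the SR and the sodium-calcium exchanger carries the rest out of the cell. Phospholamban, encoded by Pln, holds the pump back until it is phosphorylated, so the ratio of both transcripts was taken in each mouse. A lower level of SERCA2a is a well-known trait of hypertrophied and failing hearts.

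The members covered a wide range of levels. Over the 12 mice the mean was 3240 FPKM for Atp2a2 and 2343 FPKM for Pln, which ranked 15 and 20 in the whole table. The ranges of these genes over the mice overlapped, although Atp2a2 was above Pln in each mouse. Casq2 (376) and Hrc (352), both coding for calcium-binding proteins of the SR lumen, were close to each other, and the ranges of their single mice overlapped. Below them came Jph2 (144), Asph (91.4) and Ryr2 (77.6), whose ranges also overlapped from each gene to the next, and then Trdn (36.8), Cacna1c (27.2) and Slc8a1 (20.8). The membrane channel and the exchanger were thus the least abundant members. Trdn, Cacna1c and Slc8a1 overlapped in turn as well, so that gaps between neighbours stood only between Pln and Casq2, Hrc and Jph2, and Ryr2 and Trdn. All 10 passed the filter of at least 1 FPKM in at least 3 mice.

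In GENCODE the members differ in what a 50-base read can tell apart. Asph has 15 coding transcripts for proteins of 73 to 741 residues, among them the enzyme aspartyl beta-hydroxylase and the SR protein junctin, and Trdn has 7 for proteins of 56 to 693 residues. A value for either gene is therefore a sum over products of different function. Pln encodes a single protein of 52 residues. Its longest coding transcript has a GC content of 38.6%, higher than in only 1.88% of the tested genes, and those of Trdn (36.8%) and Slc8a1 (40.2%) are also poor in GC, while that of Jph2 (61.8%) is higher than in 98.1%. Exons of Asph share 2302 bases with Clvs1 on the opposite strand and those of Pln share 1644 of 2759 with Gm47644 and 141 with Cep85l, and reads from such partners could not be separated here.

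The bases upstream of the start site are shown for the 3 members with a sequence in RefSeq (GRCm38.p6) that fell after AB in DMSO mice, Pln, Ryr2 and Hrc, and for Casq2, whose values were higher. Sequences were found for 7 of the 10 members. Each run is the 250 bases ahead of the start, on the strand of the gene. Capitals mark every match, on either strand, to AGGTCA (a nuclear receptor half-site), CATTCC (the TEAD core), GATAA (the GATA core), TATAAA (the TATA box), GGGCGG (the Sp1 box), the MEF2 consensus or the CArG box.
Pln, chr10:53337436-53337685, plus strand: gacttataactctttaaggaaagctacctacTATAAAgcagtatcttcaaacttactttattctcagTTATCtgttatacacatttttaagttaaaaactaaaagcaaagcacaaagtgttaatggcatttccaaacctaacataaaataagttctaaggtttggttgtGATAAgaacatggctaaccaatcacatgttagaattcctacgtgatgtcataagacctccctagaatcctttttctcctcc
Ryr2, chr13:12106946-12107195, minus strand: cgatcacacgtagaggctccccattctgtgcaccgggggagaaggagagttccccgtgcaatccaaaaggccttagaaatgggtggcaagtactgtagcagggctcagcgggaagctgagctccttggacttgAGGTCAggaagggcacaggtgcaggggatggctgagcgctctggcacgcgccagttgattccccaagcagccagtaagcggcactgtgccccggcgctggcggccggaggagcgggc
Hrc, chr7:45335019-45335268, plus strand: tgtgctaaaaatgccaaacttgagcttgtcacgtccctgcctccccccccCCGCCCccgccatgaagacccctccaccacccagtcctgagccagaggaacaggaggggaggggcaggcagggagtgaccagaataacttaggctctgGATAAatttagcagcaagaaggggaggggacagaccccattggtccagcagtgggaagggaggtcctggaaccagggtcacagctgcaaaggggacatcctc
Casq2, chr3:102086165-102086414, plus strand: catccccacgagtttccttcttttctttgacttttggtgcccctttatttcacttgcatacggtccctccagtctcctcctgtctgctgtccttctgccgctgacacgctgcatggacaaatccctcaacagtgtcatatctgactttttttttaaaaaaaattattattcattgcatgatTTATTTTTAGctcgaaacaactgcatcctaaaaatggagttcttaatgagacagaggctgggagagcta

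No motif was found in all 3 genes that fell. The Pln window had GATAA at 77 to 81 and at 179 to 183 bases ahead of the start and TATAAA at 214 to 219, the Hrc window had GATAA at 98 to 102 and GGGCGG at 195 to 200, and the Ryr2 window had AGGTCA at 112 to 117. None of these matches overlapped another, and the Casq2 window held the MEF2 consensus at 60 to 69 bases and no other of the 7 motifs. Among all 32851 windows of this length, GATAA was found in 22.6%, GGGCGG in 32.7%, AGGTCA in 14.0%, CATTCC in 12.6%, TATAAA in 12.4%, the CArG box in 1.47% and the MEF2 consensus in 2.92%. The GC content of the windows was 32.8% for Pln, 41.6% for Casq2, 59.6% for Hrc and 63.2% for Ryr2. A match is a run of letters and does not show that a factor binds there.

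Within groups, Spearman correlations across genes lay between 0.944 and 0.989. The third DMSO+Sham library stood apart, with 966 genes (8.28% of those tested) more than 0.5 on the log2 scale from the group mean, and with a summed FPKM of the 8 cardiomyocyte markers of 48735 against 59299 to 69302 in the others. Nppb, a natriuretic peptide gene that rises under load, was at 111 to 366 FPKM in the 6 sham mice and at 801 to 1774 FPKM in the 6 AB mice. Nppa, its relative, ran from 71.8 to 967 FPKM in sham mice and was at 680, 6043 and 5738 FPKM in DMSO+AB and at 666, 1047 and 850 FPKM in Hispidulin+AB mice. The summed FPKM of 4 atrial markers in the table was 679 in the third Hispidulin+Sham library, 163 in the second DMSO+AB library, which had the lowest Atp2a2 and Hrc, 91.9 in the third Hispidulin+AB library and 9.06 to 41.3 in the other 9. Of the 8 fibroblast markers, 3 rose in DMSO+AB against DMSO+Sham, with summed FPKM of 379 to 888 against 339 to 409, and 0 of 8 cardiomyocyte markers passed. Their part in the changes of the members was not tested. In whole tissue, fewer cardiomyocytes and less RNA per cardiomyocyte cannot be told apart.

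**Figure D1:**
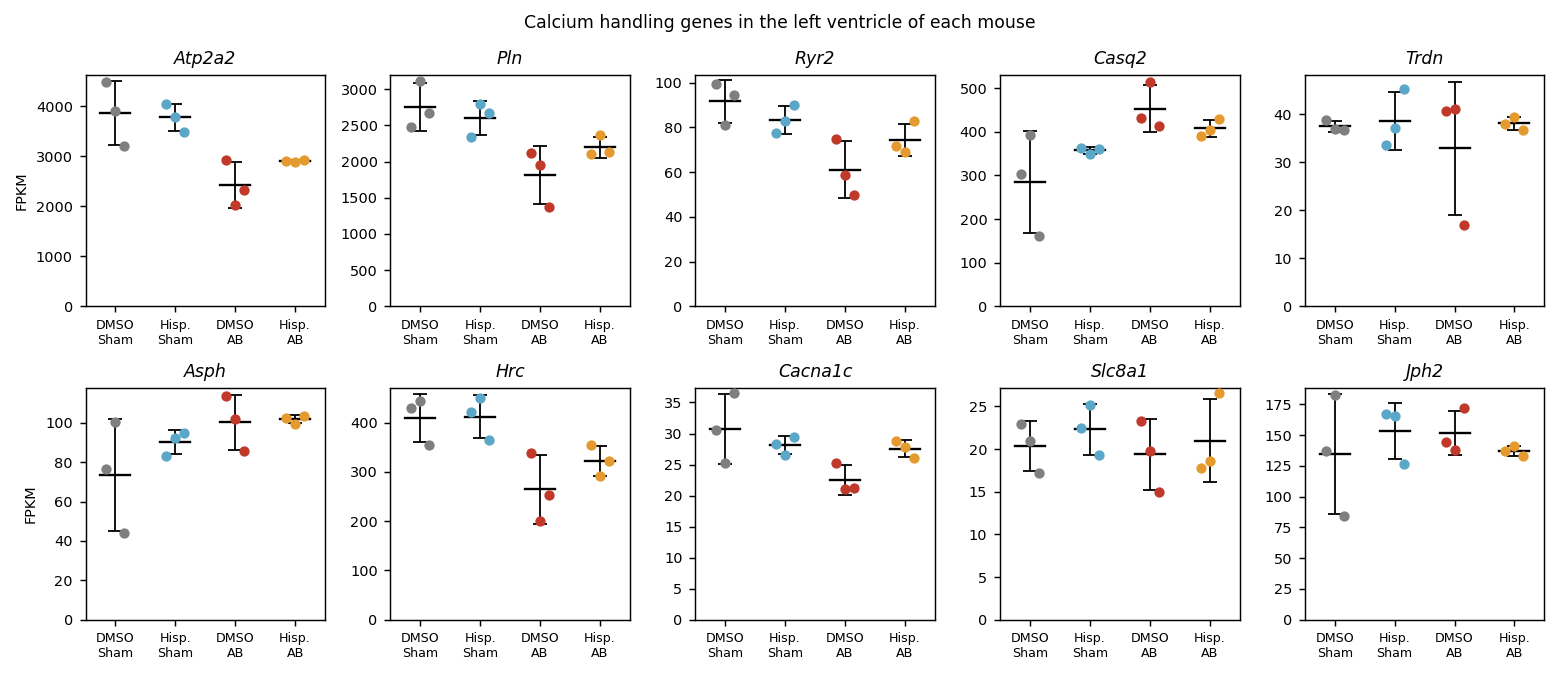
FPKM of each member (vertical axes, linear from 0) in the 3 mice of each group (points), with the group mean (horizontal line) and SD (error bar); Hisp. stands for Hispidulin. All DMSO+AB points lie below all DMSO+Sham points for Atp2a2, Pln, Ryr2 and Hrc, and above them for Casq2.

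Of the genes for SR calcium uptake, both Atp2a2 and Pln were lower after AB in DMSO mice. In DMSO mice Atp2a2 fell from 3865 ± 637 to 2422 ± 457 FPKM (SD, n = 3 each), a log2 fold change of -0.68 ± 0.14 (SE) with an adjusted p of 0.0227 (limma). The sham mice were at 4482, 3903 and 3209 FPKM and the AB mice at 2921, 2024 and 2321 FPKM, so that the groups did not overlap. In Hispidulin mice the level was 4033, 3790 and 3490 FPKM after sham and 2903, 2882 and 2923 FPKM after AB, again without overlap. That difference, -0.38 ± 0.14 on the log2 scale, did not pass (limma, adjusted p = 0.608). Averaged over DMSO and Hispidulin, Atp2a2 fell by 0.53 on the log2 scale (limma, adjusted p = 0.0112). Without the first DMSO+Sham, the second DMSO+AB or the third DMSO+AB library the adjusted p in DMSO mice was 0.0939, 0.0909 and 0.0725 (limma), whereas the averaged fall passed whichever single library was left out.

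Pln fell along with the pump. It was at 2472, 3114 and 2673 FPKM in DMSO+Sham and at 2119, 1959 and 1367 FPKM in DMSO+AB mice, with no overlap and a log2 fold change of -0.62 ± 0.15 (SE; limma, adjusted p = 0.0396). In Hispidulin mice the 3 sham values of 2343, 2790 and 2678 FPKM overlapped the AB values of 2099, 2368 and 2128 FPKM. The difference of -0.24 ± 0.15 did not pass (limma, adjusted p = 0.816). The AB mouse was the lower at each replicate number, but the labels do not state that these numbers mark pairs. The averaged fall was 0.43 (limma, adjusted p = 0.0326), a call that ended when 8 of the 12 libraries were left out in turn, at 0.0502 to 0.0870. In DMSO mice, leaving out any library but the first DMSO+AB moved the adjusted p to between 0.0539 and 0.0904 (limma), and without the third DMSO+AB library the fall was 0.43.

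The ratio of Pln to Atp2a2 FPKM did not separate the groups. It was 0.552, 0.798 and 0.833 in DMSO+Sham, 0.581, 0.736 and 0.767 in Hispidulin+Sham, 0.725, 0.968 and 0.589 in DMSO+AB, and 0.723, 0.822 and 0.728 in Hispidulin+AB mice. Phospholamban transcripts were thus fewer than pump transcripts in every mouse, and each group overlapped each of the others. The mean was 0.727 ± 0.153 (SD) in DMSO+Sham and 0.761 ± 0.192 in DMSO+AB, a difference of 0.058 on the log2 scale (exact two-sided permutation test, p = 0.9, n = 3 each). With Hispidulin the ratio was 0.695 ± 0.0997 after sham and 0.758 ± 0.0556 after AB, a difference of 0.13 (exact permutation test, p = 0.6). Over both treatments, with labels permuted within each, the difference was 0.096 (exact permutation test, p = 0.545). Hispidulin+AB against DMSO+AB differed by 0.022 (p = 0.9) and Hispidulin+Sham against DMSO+Sham by -0.053 (p = 0.7, both exact permutation tests), and the difference of differences was 0.075. With 3 mice against 3 this test cannot give a p under 0.1, and with permutation within both treatments not under 0.005. Within the animal numbers that begin with 5, which leave 1 mouse a group, the ratio was lower by 0.44 in DMSO+AB than in DMSO+Sham, against the direction of the whole groups.

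**Figure D2:**
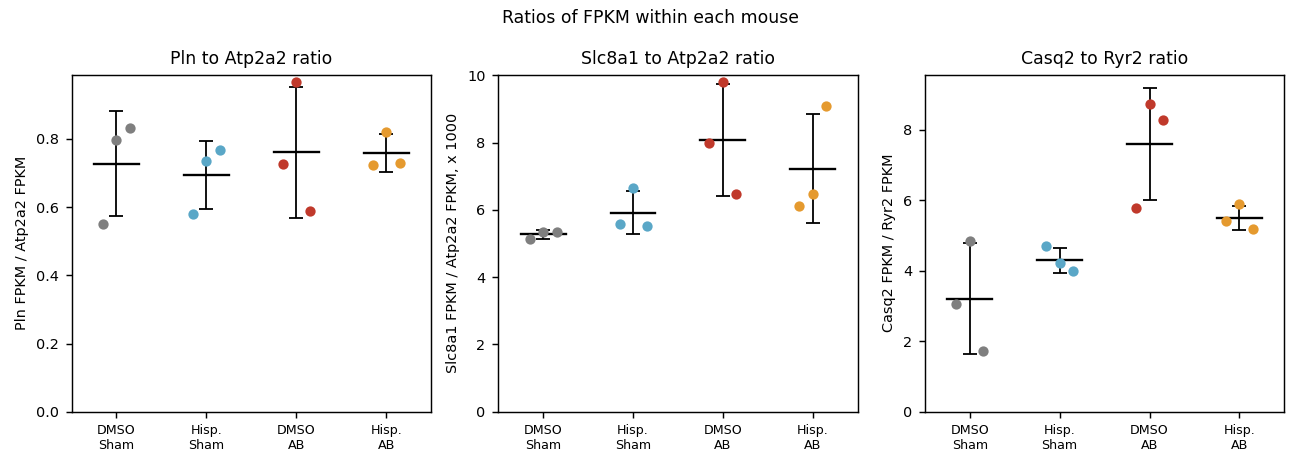
Ratios of FPKM within each mouse (points; linear vertical axes from 0) for Pln to Atp2a2, Slc8a1 to Atp2a2 (multiplied by 1000) and Casq2 to Ryr2 (chosen after its values were seen), with the group mean (horizontal line) and SD (error bar). The Pln to Atp2a2 ratio overlaps between all groups, while the Slc8a1 to Atp2a2 ratio of every DMSO+AB mouse lies above every DMSO+Sham mouse, as does that of every Hispidulin+Sham mouse, and the Casq2 to Ryr2 ratio of every AB mouse lies above every sham mouse.

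Among the genes of calcium release, Ryr2 and Hrc passed as lower in DMSO mice, and Casq2, Asph and Trdn did not pass. Whether these genes differ from each other was not tested. Ryr2, the release channel itself, fell in DMSO mice from 99.2, 81.0 and 94.4 to 74.7, 58.8 and 50.0 FPKM, by 0.59 on the log2 scale (limma, adjusted p = 0.0364). No AB mouse of the DMSO group reached the lowest sham mouse. With Hispidulin, Ryr2 was at 77.4, 82.8 and 90.02 FPKM after sham and at 71.9, 68.8 and 82.6 FPKM after AB, which overlap (-0.16 ± 0.14; limma, adjusted p = 0.891). Values after AB were lower at each replicate number, but the labels state no pairing. The averaged fall was 0.38 (limma, adjusted p = 0.0418), or 0.0551 as adjusted p with the replicate number as a block. Leaving out 8 of the 12 libraries in turn ended the call in DMSO mice, at adjusted p of 0.0514 to 0.136 (limma), and leaving out 10 of them ended the averaged call, at 0.0554 to 0.106.

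Hrc, which codes for the histidine-rich calcium-binding protein of the SR lumen, also fell. It was at 429, 445 and 354 FPKM in DMSO+Sham and at 339, 201 and 254 FPKM in DMSO+AB mice, a log2 fold change of -0.65 ± 0.17 (SE; limma, adjusted p = 0.0469). Hispidulin mice had 421, 451 and 364 FPKM after sham and 354, 292 and 322 FPKM after AB. Both pairs of groups were without overlap, although the second did not pass (-0.35 ± 0.17; limma, adjusted p = 0.703). The averaged fall was 0.50 (limma, adjusted p = 0.0275), a call that ended when 7 of the 12 libraries were left out in turn, at 0.0505 to 0.0760. In DMSO mice the call held without the third DMSO+Sham or the first DMSO+AB library and was lost without any other, at adjusted p of 0.0608 to 0.156 (limma). Without the second DMSO+AB library the fall was 0.47.

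Casq2, the calcium buffer of the SR, had values in the other direction. DMSO+AB mice were at 432, 513 and 414 FPKM, all above the 303, 393 and 162 FPKM of DMSO+Sham mice, and the difference of 0.75 ± 0.24 (SE, log2) had an adjusted p of 0.0951 (limma). The Hispidulin+AB mice, at 390, 405 and 429 FPKM, all lay above the Hispidulin+Sham mice, at 363, 349 and 359 FPKM, with a difference of 0.19 ± 0.24 (limma, adjusted p = 0.930). The lowest Casq2 value was that of the third DMSO+Sham library, which also had the lowest cardiomyocyte markers. Without that library the difference was 0.39, and without the second DMSO+Sham library it was 1.02 and passed (limma, adjusted p = 0.0131).

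Asph and Trdn, whose products anchor calsequestrin to the release channel, did not pass. Asph was at 76.7, 100.2 and 43.8 FPKM in DMSO+Sham, 113, 102 and 85.6 FPKM in DMSO+AB, 83.3, 92.3 and 94.7 FPKM in Hispidulin+Sham and 102, 99.5 and 104 FPKM in Hispidulin+AB mice. The AB values with Hispidulin lay above all 3 sham values (0.18 ± 0.23; limma, adjusted p = 0.933), and those with DMSO overlapped them (0.51 ± 0.23; limma, adjusted p = 0.227). Without the second DMSO+Sham library the difference in DMSO mice was 0.77 (limma, adjusted p = 0.0336). Trdn was at 38.9, 36.9 and 36.8 FPKM in DMSO+Sham and 40.8, 41.1 and 16.9 FPKM in DMSO+AB mice, and at 33.6, 37.1 and 45.3 FPKM in Hispidulin+Sham and 38.1, 39.4 and 36.8 FPKM in Hispidulin+AB mice. Its lower mean in DMSO+AB mice came from 1 library: the log2 difference was -0.29 ± 0.26 with the third DMSO+AB library and 0.12 without it.

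At the cell membrane, Cacna1c, the pore of the L-type channel, was at 30.5, 25.2 and 36.5 FPKM in DMSO+Sham and 25.2, 21.01 and 21.2 FPKM in DMSO+AB mice. The difference of -0.43 ± 0.13 (SE, log2) had an adjusted p of 0.0798 (limma), and passed without the second DMSO+Sham (-0.56, adjusted p = 0.0168) or the first DMSO+AB library (-0.51, adjusted p = 0.0453). In Hispidulin mice it was at 28.4, 26.5 and 29.5 FPKM after sham and 28.7, 27.9 and 26.1 FPKM after AB, a difference of -0.028 ± 0.13 (limma, adjusted p = 0.985). Slc8a1, the sodium-calcium exchanger, was at 22.9, 20.9 and 17.2 FPKM in DMSO+Sham, 23.3, 19.8 and 14.99 FPKM in DMSO+AB, 22.5, 25.2 and 19.3 FPKM in Hispidulin+Sham and 17.8, 18.7 and 26.6 FPKM in Hispidulin+AB mice. Every pair of groups overlapped, and the differences after AB were -0.078 ± 0.19 with DMSO and -0.098 ± 0.19 with Hispidulin (limma, adjusted p = 0.851 and 0.963).

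The ratio of the exchanger to the pump was also taken in each mouse. It holds the fall of Atp2a2 in its denominator and was chosen with that fall known, so it is given without a test and is no separate support. Slc8a1 per 1000 FPKM of Atp2a2 was 5.12, 5.36 and 5.35 in DMSO+Sham and 7.99, 9.79 and 6.46 in DMSO+AB mice, and 5.58, 6.65 and 5.52 in Hispidulin+Sham and 6.12, 6.48 and 9.10 in Hispidulin+AB mice. All DMSO+AB mice were above all DMSO+Sham mice, and so were all Hispidulin+Sham mice, while the Hispidulin+AB mice overlapped both the Hispidulin+Sham and the DMSO+AB mice. The log2 difference after AB was 0.59 with DMSO and 0.27 with Hispidulin.

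Jph2, junctophilin 2, holds the T-tubule membrane close to the SR. It was at 137, 182 and 84.4 FPKM in DMSO+Sham, 145, 138 and 172 FPKM in DMSO+AB, 167, 166 and 127 FPKM in Hispidulin+Sham and 137, 141 and 133 FPKM in Hispidulin+AB mice. No pair of groups was without overlap. The difference in DMSO mice was 0.23 ± 0.22 (limma, adjusted p = 0.591) and turned to -0.066 without the third DMSO+Sham library.

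Over all members, 4 of 10 fell and 0 rose in DMSO+AB against DMSO+Sham, where 5.21% of the 11664 genes tested passed, 2.71% lower and 2.50% higher. The number of genes behind that share, 608, was itself unsteady, at 91, 97 and 191 without the first DMSO+Sham, the second and the third DMSO+AB library, 1053 and 954 without the second DMSO+Sham and the first DMSO+AB library, 1423 with library weights and 11 with only the libraries compared. The members' median log2 difference was -0.36, against -0.035 over all genes tested, and it was -0.15, with 5 members lower rather than 7, without the third DMSO+AB library. All 3 AB mice were below all 3 sham mice for 4 members (10.8% of all genes) and above them for 1 member, Casq2 (7.18% of all genes). Scaling to the cardiomyocyte markers moved the median of all genes to -0.15, and 2 members then passed, and leaving out the third DMSO+Sham and the third DMSO+AB library together gave 1. No filter on low values, the first digit of the animal number as a covariate (which leaves the first DMSO+Sham mouse, numbered 1, alone in its level and so out of the estimate), and a fit of only the 6 libraries compared each left 0 members past the threshold (limma), as did leaving out the first DMSO+Sham, the second DMSO+AB or the third DMSO+AB library. Without the first DMSO+AB library 5 passed, namely Atp2a2, Pln, Ryr2, Hrc and Cacna1c, all lower. Without the second DMSO+Sham library 5 also passed, but Pln and Hrc were lost. Those were Atp2a2, Ryr2 and Cacna1c as lower and Casq2 and Asph as higher. Without the third DMSO+Sham or any 1 Hispidulin library 1 or 2 passed. Within the animal numbers that begin with 5 and with 6, Atp2a2 differed by -0.75 and -0.40, Pln by -1.19 and -0.39, Ryr2 by -0.69 and -0.50 and Hrc by -0.81 and -0.44, each from 1 to 2 mice a group and without a test.

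Averaged over DMSO and Hispidulin, Atp2a2, Pln, Ryr2 and Hrc fell and 0 members rose, where 7.39% of all genes passed, 3.87% lower and 3.52% higher. In the same comparison 1 of 8 cardiomyocyte, 3 of 8 fibroblast and 1 of 5 smooth muscle markers rose and 1 of 2 tested skeletal muscle markers fell, and their part was not tested. Leaving out 1 library gave between 1 and 6 members, with 1 member, Atp2a2, left without the first DMSO+Sham library and 6 without the second. In Hispidulin+AB against Hispidulin+Sham alone, 0 of 10 members passed (limma; 0.0% of all genes) and 1, Atp2a2, had an unadjusted p under 0.05 (7.26% of all genes). Over all genes 17 passed with the replicate block, 49 with only the libraries compared and 209 with library weights, and 0 members were among them. In that comparison the AB mice all lay below the sham mice for 2 members, Atp2a2 and Hrc (11.8% of all genes), and above them for 2, Casq2 and Asph (9.14%). The median of the members was -0.12, against -0.020 over all genes. A pass with DMSO and none with Hispidulin does not show that the treatments differ, and the interaction, which tests this, passed for 0 of 10 members (limma; 0.0% of all genes). One member, Cacna1c, had an unadjusted p under 0.05 in it (2.48% of all genes), with a difference of differences of 0.40 and an adjusted p of 1.00.

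Whether the drug moved these genes in banded hearts is asked by Hispidulin+AB against DMSO+AB. Here 0 of 10 members passed (limma; 0.0% of all genes). Without the first DMSO+AB library 20 genes passed, 4 higher and 16 lower, and 0 members were among them. Of the 10 members, 8 had higher values with Hispidulin, against 51.4% of all genes tested, and the median was 0.28, against 0.0047. Both values depended most on the third DMSO+AB library, without which 5 members were higher and 5 lower and the median was 0.032. The median was 0.15 without the second DMSO+AB library and 0.16, with 7 members higher, with library weights. With the trend of each library with GC content and transcript length removed, 6 members were higher and 4 lower, with a median of 0.20. The differences were 0.28 for Atp2a2 (95% interval -0.032 to 0.59), 0.30 for Pln (-0.033 to 0.63), 0.29 for Ryr2 (-0.015 to 0.60) and 0.31 for Hrc (-0.059 to 0.68). Without the third DMSO+AB library Pln differed by 0.11 and Ryr2 by 0.16, and without the second Atp2a2 differed by 0.16 and Hrc by 0.13, while without the first the 4 values were 0.42, 0.42, 0.45 and 0.51 in the order above. The intervals thus held both no difference and a return of much of the fall seen with DMSO. Cacna1c, at 0.29 (0.0082 to 0.57), was the 1 member with an unadjusted p under 0.05 (3.10% of all genes) and the 1 member with all Hispidulin+AB mice above all DMSO+AB mice (4.23% of all genes), while 0 members lay all below (3.65%). Adjusted p was 0.996 for Cacna1c (limma). The DMSO+AB mice enter this comparison and that with DMSO+Sham, so opposite signs in both carry no separate weight. The difference was 0.31 for Trdn, 0.11 for Slc8a1, 0.032 for Asph, -0.15 for Casq2 and -0.14 for Jph2, and without the third DMSO+AB library those of Trdn, Slc8a1 and Asph turned to -0.10, -0.055 and -0.076.

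Without banding, in Hispidulin+Sham against DMSO+Sham, 0 of 10 members passed (limma; 0.0% of all genes) and 0 had an unadjusted p under 0.05 (2.46% of all genes). The differences ran from -0.13 for Ryr2 to 0.41 for Casq2, with a median of 0.022, and no member was without overlap between the groups (5.60% of all genes were). Atp2a2 differed by -0.025 (95% interval -0.33 to 0.28) and Pln by -0.078 (-0.41 to 0.25).

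**Figure D3:**
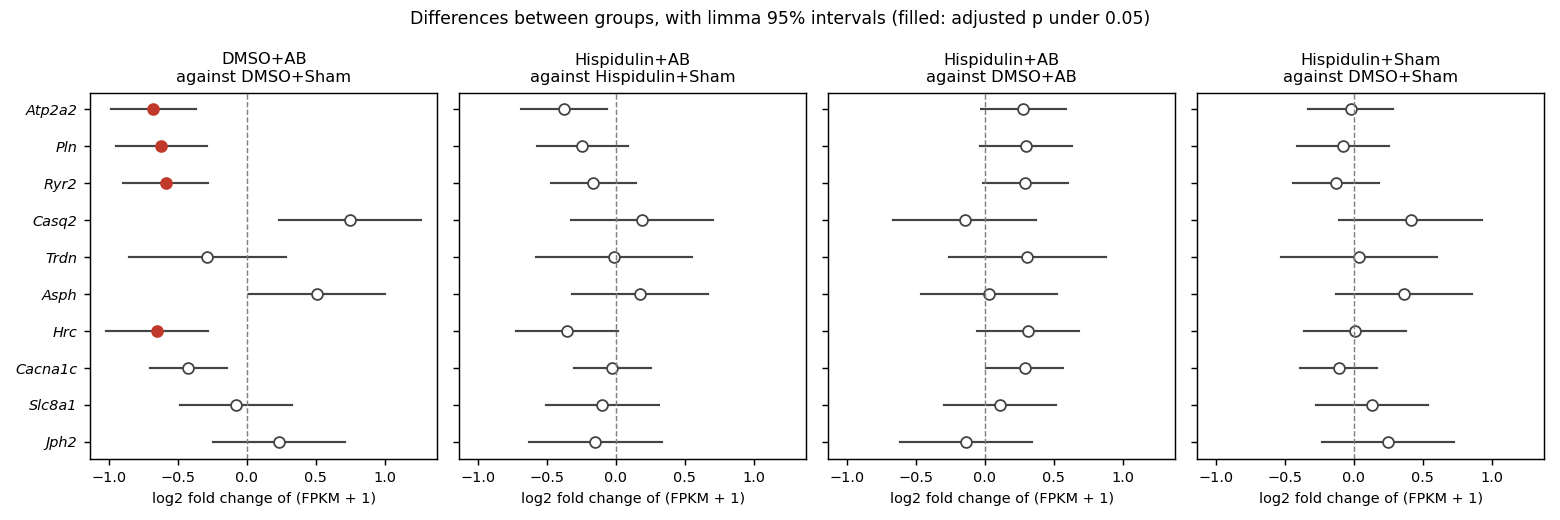
Log2 fold change of FPKM + 1 (horizontal axes) of each member in 4 comparisons, with the 95% interval from limma; filled points have an adjusted p under 0.05. Filled points are those of Atp2a2, Pln, Ryr2 and Hrc in DMSO+AB against DMSO+Sham, and no other comparison has one.

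The spread of the members within groups followed the GC content of their transcripts in some libraries. In the third DMSO+AB library the deviation from the group mean rose with GC content across the 10 members (Spearman rho 0.96) and across 11378 genes (rho 0.66), and the members poorest in GC, Trdn, Pln and Slc8a1, were lower there by a mean of 0.51 while Jph2 was higher by 0.19. The second DMSO+AB library had the opposite slope, with rho -0.89 across members and -0.39 across genes. Slopes were not limited to these: rho was 0.85 across members and 0.45 across genes in the first Hispidulin+Sham library, -0.55 and -0.52 in the third, and -0.21 and -0.41 in the first DMSO+AB library. In the other 7 libraries rho lay between -0.24 and 0.41 across members and between -0.15 and 0.14 across genes. In DMSO+AB mice the highest and the lowest Pln to Atp2a2 ratio, 0.968 and 0.589, were those of the second and the third library. Genes are not independent replicates, so these values are given without a test.

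After the trend of each library with GC content and transcript length had been removed, a step added after these values were seen, the ratio in DMSO+AB mice was 0.703, 0.828 and 0.785. In DMSO+Sham mice it was 0.566, 0.841 and 0.782, a spread about as wide as without this step. It was 0.613, 0.755 and 0.681 in Hispidulin+Sham and 0.711, 0.777 and 0.728 in Hispidulin+AB mice. Atp2a2, Pln and Ryr2 still passed in DMSO+AB against DMSO+Sham (limma, adjusted p = 0.0288, 0.0241 and 0.0160) and Hrc did not (adjusted p = 0.0645), while all 4 passed in the averaged comparison. In Hispidulin+AB against DMSO+AB, where log2 differences fell with GC content across all genes (rho -0.33), the value became 0.27 for Atp2a2, 0.21 for Pln, 0.21 for Ryr2, 0.34 for Hrc and 0.23 for Cacna1c, and 0 members passed.

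**Figure D4:**
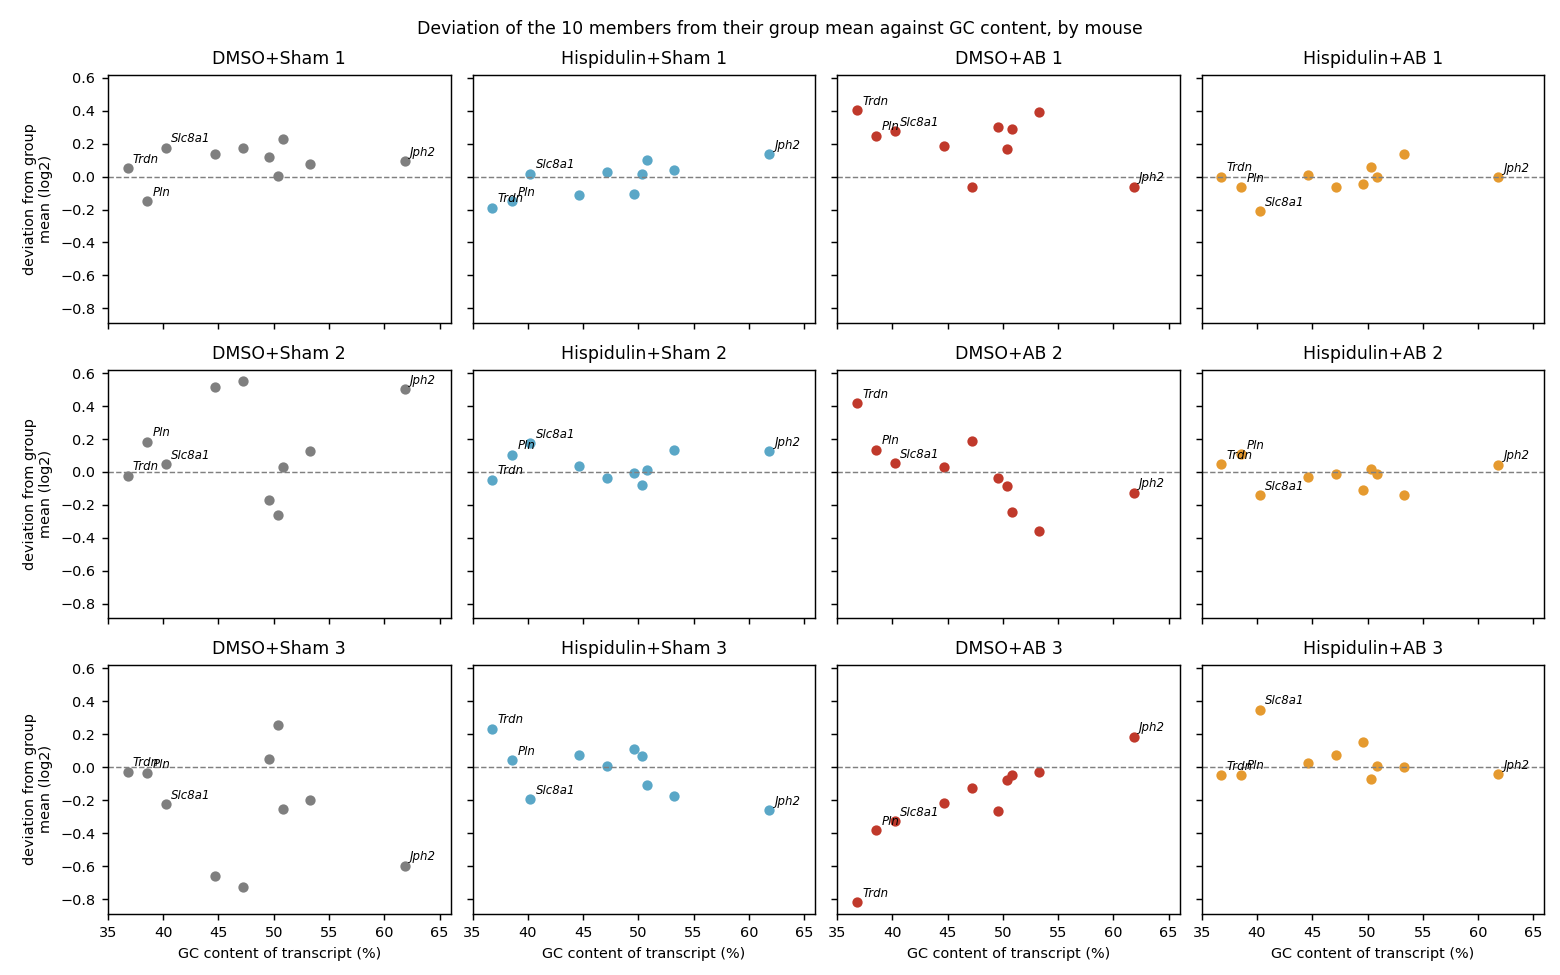
Deviation of each member from its group mean on the log2 scale (vertical axes) against the GC content of its longest coding transcript in percent (horizontal axes), 1 panel a mouse; each point is 1 of the 10 members, and Trdn, Pln, Slc8a1 and Jph2 are named. Points rise with GC content in DMSO+AB 3 (rho 0.96) and fall in DMSO+AB 2 (rho -0.89).

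Around the members stands a wider list of 78 calcium genes, of which 75 were in the table and 60 passed the filter. In DMSO+AB against DMSO+Sham 1 of the 60 passed as higher and 1 as lower (2.50% and 2.71% of all genes), and the median of the 60 was 0.061. Both genes reached 1 FPKM only in groups where they were high, and so entered the test through the difference itself, which leaves the counts without weight. Cacng6, a gamma subunit of calcium channels, was at 1.62, 1.63 and 1.82 FPKM in DMSO+Sham, 0.50, 0.10 and 0.28 FPKM in DMSO+AB, 1.60, 1.35 and 1.12 FPKM in Hispidulin+Sham and 0.48, 0.62 and 0.36 FPKM in Hispidulin+AB mice. Jsrp1, a triad protein better known from skeletal muscle, was at 0.36, 0.49 and 0.29 FPKM in DMSO+Sham, 1.16, 1.51 and 1.16 FPKM in DMSO+AB, 0.44, 0.52 and 0.30 FPKM in Hispidulin+Sham and 0.93, 0.70 and 0.71 FPKM in Hispidulin+AB mice. Neither gene overlapped between sham and AB mice with either treatment, which carries no weight for the same reason. Of all genes, 7.18% lay all above and 10.8% all below with DMSO, and 9.14% and 11.8% with Hispidulin.

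Averaged over both treatments, 5 of the 60 passed as higher and 1 as lower (3.52% and 3.87% of all genes), again with Jsrp1 and Cacng6 among them. The other 4 rose: Cav3 (0.39), the caveolin of muscle membranes, Cacnb3 (0.52), a channel beta subunit, Fkbp1a (0.29), a ligand of ryanodine receptors, and S100a1 (0.30), a small protein that activates both the release channel and the pump. Adjusted p ran from 0.0222 for Cav3 to 0.0475 for Fkbp1a (limma). In the other comparisons 0 of the 60 passed (limma). At an unadjusted p under 0.05 stood 6 in Hispidulin+AB against Hispidulin+Sham (7.26% of all genes), 5 in Hispidulin+AB against DMSO+AB (3.10%), 0 in Hispidulin+Sham against DMSO+Sham (2.46%) and 2 in the interaction (2.48%). Jsrp1, Cacng6 and Mrln, which reached 1 FPKM mostly through a group where they were high, made up 3 of the 6, 2 of the 5 and both in the interaction, so that these counts too carry no weight.

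By role, 7 tested regulators and relatives of the pump ran from Mrln (mean 0.894 FPKM over the 12 mice) to S100a1 (999 FPKM), 10 release channels and partners from Itpr3 (1.53) to Srl (307), and 12 membrane channels, subunits and inhibitors from Cacna1h (0.903) to Rrad (107). Of the calcium extrusion list only Atp2b4 (4.09) and Atp2b1 (8.38), both membrane calcium pumps, passed the filter, and neither reached the mean of Slc8a1. Genes of store-operated entry ran from Orai2 (0.871) to Orai1 (15.5), those of mitochondrial calcium from Mcub (2.03), an inhibitor of the uniporter, to Smdt1 (219), its essential subunit, and those of T-tubule and dyad structure from Jsrp1 (0.714) to Tcap (2064). In the store-operated (7 tested), mitochondrial (9) and extrusion (2) groups 0 genes passed after AB, with DMSO or averaged. Of all genes, 5.21% passed with DMSO and 7.39% averaged, so counts of 0 in groups this small do not set them apart. With DMSO, 0 genes passed in the pump and release groups as well. Medians by role for the log2 difference with DMSO lay between -0.11, for the release partners, and 0.18, for the genes of T-tubule and dyad structure.

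Over the 12 mice, the tested genes outside these lists whose log2 level was most like that of Atp2a2 were Crat (Pearson r 0.985), Atp5a1 (0.985) and Hadha (0.970), which code for enzymes of mitochondrial energy metabolism. Those most like Pln were Cog5 (0.978), Mmut (0.974) and Bhlhb9 (0.969). These are the highest among the correlations with all tested genes outside the lists, they include the difference between sham and AB mice and the trends of libraries with GC content, and they are given as a description.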

How the data were processed

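Poly(A) RNA of 12 left ventricles had been sequenced in single 50-base reads. The authors deposited FPKM values, rounded to 0.01, for 18079 genes by NCBI Gene ID. The submitters' processing notes name HISAT2 2.0.4, Bowtie2 2.2.5, RSEM 1.2.12 and DESeq2 1.4.5, and the genome build, annotation and strand setting are not given in the sources used here. Read counts were not analysed here, so the depth behind each value is unknown.

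Genes with FPKM of at least 1 in at least 3 libraries (11664) were tested on log2(FPKM + 1) with limma 3.58.1 in R 4.3.3, with 1 mean per group in all 12 libraries and a variance trend, and p-values were adjusted by Benjamini-Hochberg over all genes tested, with a threshold of 0.05. Fold changes on this scale understate those of low genes. The scripts were tested on simulated data. Ratios were taken per mouse without a pseudocount, and that of Pln to Atp2a2 was tested by exact two-sided permutation (Python 3.11.15, SciPy 1.17.1). Separate mice make up each group, so p-values measure the spread between mice.

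The members and lists were chosen with earlier results of these data known. All 10 members were named, and of the wider list each gene that passed in any comparison and the lowest and highest of each role, except for 1 role that is not reported here. The 3 tested genes outside the lists with the highest Pearson r to Atp2a2 and to Pln were also named. Replicate numbers in the labels mark different animals. Deviations of same-numbered mice correlated at -0.20 to -0.024 in DMSO+AB against DMSO+Sham and at -0.18 to 0.30 in Hispidulin+AB against DMSO+AB. They correlated at 0.15 to 0.23 in Hispidulin+AB against Hispidulin+Sham and at 0.13 to 0.33 in Hispidulin+Sham against DMSO+Sham. In the last 2 comparisons, mice of different number correlated at -0.18 to 0.012 and at -0.31 to 0.056. Deviations cancel out within each group, so these values are not independent and do not show that the numbers mark pairs. The replicate block was therefore an alternative only. Transcript features came from GENCODE vM21, with a value for 97.5% of the genes tested. Alternatives covered the pseudocount, filter, scaling, trend, library weights, animal number series, replicate block, single libraries and GC content.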

Additional observations from a re-analysis of the deposited data

How the results depend on the processing

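The depth is unknown, and with 3 mice a group the calls of members sit close to the threshold: of the 25 alternatives in DMSO+AB against DMSO+Sham, Atp2a2 passed in 19, Ryr2 in 12, Hrc in 8 and Pln in 7, and of the 24 for the averaged comparison in 24, 7, 14 and 14. Except where stated, the cause of a change was not tested. Members that passed with DMSO (4 as reported) numbered 0 without a filter, with the animal number series or with only the libraries compared, 2 with cardiomyocyte scaling, 1 without the third DMSO+Sham and the third DMSO+AB library together (chosen after seeing the data) and 0 to 5 without single libraries. In the averaged comparison (4) they numbered 1 without a filter, 2 with median-of-ratios scaling or the series, 7 with library weights and 1 to 6 without single libraries. For the wider list the count with DMSO (2) was 1 at FPKM of at least 5, with cardiomyocyte scaling or the series, 0 with only the libraries compared, 9 with weights, 4 with the GC and length trend removed and 1 to 7 without single libraries. The averaged count (6) was 3 at FPKM of at least 5, with cardiomyocyte scaling or the series, 15 with weights and 2 to 8 without single libraries, and in Hispidulin+AB against Hispidulin+Sham (0) it was 2 with weights. With the replicate number as a block, 4 members passed with DMSO, 3 in the averaged comparison, where Ryr2 was lost, and 0 in the others, and the block changed no other call of a member. Cardiomyocyte scaling turned the 292 higher and 316 lower genes with DMSO into 83 higher and 166 lower, and median-of-ratios scaling into 342 higher and 253 lower.

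Values that did not pass changed sign in places. The Pln to Atp2a2 ratio with DMSO was -0.44 within animal numbers that begin with 5 and -0.13 to 0.23 without single libraries. In Hispidulin+AB against DMSO+AB it was -0.0032 on the linear scale, -0.12 within numbers that begin with 6, -0.061 with the GC and length trend removed and -0.15 to 0.21 without single libraries. It was -0.24 to 0.070 without single libraries in Hispidulin+Sham against DMSO+Sham and -0.095 to 0.26 in the interaction. Slc8a1 to Atp2a2 was 0.49 in Hispidulin+AB against DMSO+AB within numbers that begin with 5. In DMSO+AB against DMSO+Sham, Slc8a1 was 0.033 with the series, 0.046 with the trend removed and -0.22 to 0.086 without single libraries, and without that pair of libraries Trdn was 0.11 and Jph2 -0.16. Without single libraries these 2 ran from -0.49 to 0.12 and from -0.066 to 0.48. In Hispidulin+AB against Hispidulin+Sham, Trdn was 0.0048 with median-of-ratios scaling, 0.023 with weights, 0.0052 with the trend removed and -0.10 to 0.11 without single libraries. There Cacna1c was 0.0050 with weights and -0.068 to 0.0091 without single libraries, and Slc8a1 -0.27 to 0.0061. In Hispidulin+AB against DMSO+AB, Asph was -0.00037 with weights and -0.049 with the trend removed, Slc8a1 -0.059 with the trend removed, and without that pair of libraries Trdn was -0.10, Asph -0.076 and Slc8a1 -0.055. Without single libraries these 3 ran from -0.10 to 0.52, -0.076 to 0.12 and -0.065 to 0.25. In Hispidulin+Sham against DMSO+Sham, Pln was 0.030 with weights and -0.15 to 0.014 without single libraries, and Atp2a2 0.075 with the series and -0.15 to 0.089. In the averaged comparison, Jph2 was -0.0050 with quantile normalization, -0.015 with cardiomyocyte scaling, -0.048 with weights, -0.014 with the trend removed, -0.15 without that pair of libraries and -0.11 to 0.17 without single libraries, and Trdn 0.050 without that pair of libraries and -0.25 to 0.057 without single libraries.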

Other observations

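The ratio of Casq2 to Ryr2, the SR calcium buffer to the release channel, was taken after the values of both genes had been seen and is given without a test. It was 3.05, 4.85 and 1.71 in DMSO+Sham, 4.70, 4.21 and 3.99 in Hispidulin+Sham, 5.78, 8.73 and 8.29 in DMSO+AB and 5.43, 5.88 and 5.19 in Hispidulin+AB mice. Every AB mouse thus lay above every sham mouse, with means of 3.20 ± 1.58 (SD, n = 3) in DMSO+Sham, 4.30 ± 0.360 in Hispidulin+Sham, 7.60 ± 1.59 in DMSO+AB mice and 5.50 ± 0.354 in the Hispidulin+AB mice. The lowest ratio, 1.71, was that of the third DMSO+Sham library, which stood apart in many genes.

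Within DMSO+AB, the first mouse had the highest Atp2a2, Pln, Ryr2, Asph, Hrc, Cacna1c and Slc8a1. Its summed FPKM of Nppa, Nppb and Myh7 was 2170, against 8362 in the second and 7512 in the third, and a link was not tested. The other mice did not share one order. The third had the lowest Pln, Ryr2, Trdn and Slc8a1 and the highest Jph2, and the second the lowest Atp2a2, Hrc and Cacna1c and the highest Casq2. Atp2a2 spread over 2422 ± 457 FPKM (SD, n = 3) in DMSO+AB and over 2902 ± 20.5 FPKM in Hispidulin+AB mice, while the SD of Slc8a1 was 4.19 FPKM in the former and 4.87 FPKM in the latter. The difference in spread was not tested.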
